A study of Mus musculus with 57 samples.

Results

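*Epcam*, *Cdh1*, *Esrp1*, *Esrp2*, *Sox2*, *Trp63*, *Krt5*, *Krt14*, *Krt8* and *Krt18* are 10 genes that mark the epithelia of the foregut and its derivatives. They were read by name, as 10 of the 56860 genes of the deposited count and TPM tables, in every RNA-seq library of a study of mouse embryos lacking *Hoxa5*. The set was chosen by the wt and mutant *Esrp1* values of the diaphragm, a muscle in which *Esrp1* was lower in mutants, so the diaphragm genotype values are given below as a description and without a test. The other 6 contexts did not enter the choice.

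The study compared wt and *Hoxa5*-/- mouse embryos, all on the 129/Sv background, in 7 contexts. The mutants carry a null allele in which a neomycin cassette interrupts the homeobox in every cell of the embryo, so transcripts of the remaining *Hoxa5* exons can still be counted. Trachea, lung and diaphragm at E15.5, lung at E12.5 and the somite segments C3 to T2 at E12.5 had 4 libraries per genotype. Somites at E10.5 had 4 wt and 3 mutant libraries, and the brown fat between the shoulder blades (iBAT), taken at E18.5, had 5 of each. This gave 57 libraries in 14 groups. The 32 libraries of trachea, lung and diaphragm have single-end reads of 100 bases from 1 sequencing centre, and the 25 of somites and iBAT have paired-end reads of 150 bases from another, so that tissue and centre cannot be told apart between these sets. Every level below is in TPM, the read count of a gene scaled for its length and for the total of its library.

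Epithelial cells are held together by adherens and tight junctions. *Epcam* and *Cdh1* (E-cadherin) encode adhesion molecules of the epithelial surface, and *Esrp1* and *Esrp2* encode RNA-binding proteins that direct epithelial splicing choices. In the developing foregut, *Sox2* and *Trp63* (p63) encode transcription factors of the conducting airway and of the stratified epithelium of the oesophagus. Basal cells of stratified epithelia use the keratin pair *Krt5* and *Krt14*, and single-layered epithelia use the pair *Krt8* and *Krt18*. Skeletal muscle uses none of these as its defining genes. In whole tissue, fewer epithelial cells and less RNA per cell cannot be told apart.

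The genes lie on 7 mouse chromosomes in GRCm39, with *Esrp1* at chr4:11331933-11386783 on the minus strand and *Epcam* at chr17:87943407-87958557 on the plus strand. *Krt5*, *Krt8* and *Krt18* are neighbours on chromosome 15, at chr15:101615505-101621333, chr15:101905133-101912917 and chr15:101936615-101940462. The stretch just before the gene start is shown for 3 genes whose levels rose or fell by library in different ways, because repressors of epithelial genes, such as the Zeb and Snai factors, are known to bind the E-box CACCTG. Both strands were searched, capitals mark the motif as CACCTG or its reverse complement CAGGTG, and the sequences are RefSeq promoter windows of the GRCm38.p6 table that matched GRCm39 once. Each runs 5′ to 3′ on the strand of its gene.
Epcam, chr17:87943157-87943406, plus strand: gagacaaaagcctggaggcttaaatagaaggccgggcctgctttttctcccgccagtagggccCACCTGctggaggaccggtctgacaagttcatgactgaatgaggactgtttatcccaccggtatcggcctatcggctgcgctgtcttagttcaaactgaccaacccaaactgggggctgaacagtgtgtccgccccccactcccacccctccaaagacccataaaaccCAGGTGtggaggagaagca
Krt18, chr15:101936401-101936614, plus strand: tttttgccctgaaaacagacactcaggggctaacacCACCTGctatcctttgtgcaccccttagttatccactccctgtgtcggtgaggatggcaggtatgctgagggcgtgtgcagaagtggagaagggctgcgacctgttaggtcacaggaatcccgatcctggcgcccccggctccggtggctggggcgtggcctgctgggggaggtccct
Krt5, chr15:101621341-101621590, minus strand: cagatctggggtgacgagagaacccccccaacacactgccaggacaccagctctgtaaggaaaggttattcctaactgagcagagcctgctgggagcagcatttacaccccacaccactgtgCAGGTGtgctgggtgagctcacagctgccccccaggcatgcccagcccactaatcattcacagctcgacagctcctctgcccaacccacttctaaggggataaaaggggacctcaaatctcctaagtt

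The *Epcam* stretch held 2 copies of the motif and those of *Krt18* and *Krt5* held 1 each. The 250-base RefSeq window of *Krt8* held 1, inside the gene as the deposited annotation draws it, and those of *Sox2* and *Krt14* held 0. *Cdh1*, *Esrp1*, *Esrp2* and *Trp63* were not among the 6 genes matched to the table. Over all 32851 windows of that length, 17.2% held the motif, and a match describes letters only.

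Library totals ran from 18369905 to 72991481 counts, and *Hoxa5* TPM was higher in every wt than in every mutant library in 7 of 7 contexts. The labelled tissues expressed their defining genes: the muscle actin *Acta1* reached 5237 to 18193 TPM in the diaphragm libraries, the surfactant gene *Sftpc* 1144 to 7607 TPM in E15.5 lung, the brown fat gene *Ucp1* 2320 to 6969 TPM in iBAT, and the myogenic gene *Myod1* 139.8 to 191 TPM in E12.5 somites. *Myod1* stood at 1.62 to 11.6 TPM in E10.5 somites, and *Sftpc* at 12.4 to 25.7 TPM in E12.5 lung.

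Several libraries also held genes of neighbouring tissues, and the epithelial genes are read against these. In the diaphragm, wt replicates 1 and 2 held the squamous keratin *Krt13* at 73.1 and 99.8 TPM, against at most 0.981 TPM in the other 6 libraries. Wt replicate 3 held *Nkx2-1*, the lung and thyroid regulator, at 57.1 TPM and *Sftpc* at 322 TPM, against at most 0.64 and 11.8 TPM elsewhere in the diaphragm. Wt replicate 3 of the trachea held the parathyroid hormone gene *Pth* at 63.3 TPM, which was at 0 in the other 7 trachea libraries. The E10.5 somite libraries held the neural progenitor gene *Sox1* at 11.4 to 29.2 TPM, although the neural tube was dissected away, and the E12.5 libraries held at most 0.23 TPM. In the E12.5 lung, mutant replicate 1 held the list of 9 stomach epithelium genes at 102.8 TPM, against 17.1 to 25.2 TPM in the other 7 libraries. Of these 9 genes, 2 reached a mean of 1 TPM in mutants and 2 did in wt, so the sum alone does not show stomach tissue. The diaphragm values, the calls that involve the trachea library with *Pth* and the E12.5 lung *Sox2* value are also given without those libraries. All 7 E10.5 somite libraries held *Sox1*, so that no value could be had without it.

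**Figure D1:**
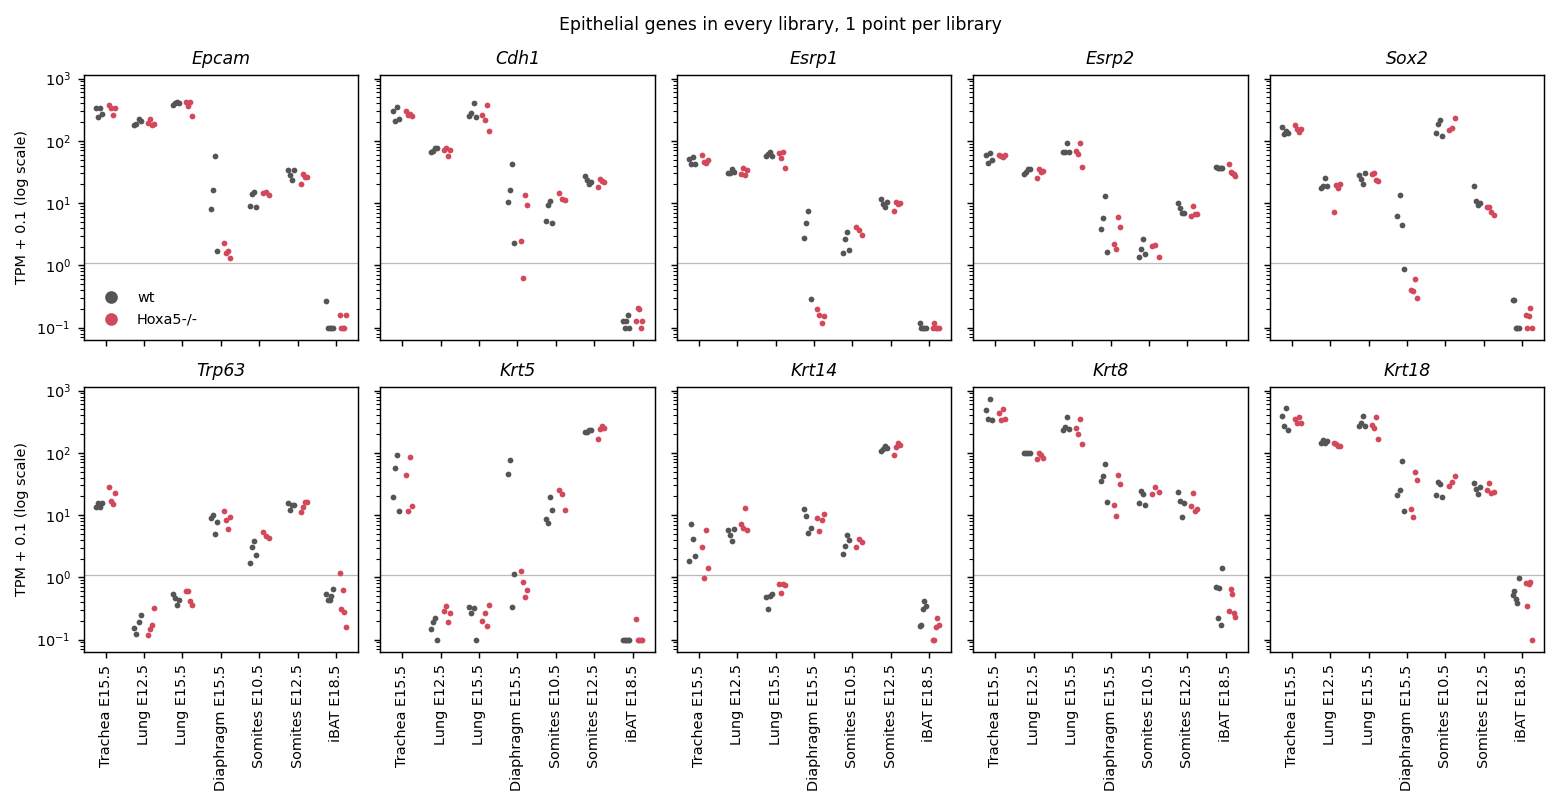
Each panel plots 1 gene, with TPM + 0.1 on a log axis for every library of the 7 contexts (grey, wt; red, *Hoxa5*-/-) and a grey line at 1 TPM. Both genotypes overlap for nearly all genes outside the diaphragm, where the 4 wt libraries spread from 0.189 to 7.44 TPM for *Esrp1* and the mutant libraries lie at or under 0.0963 TPM.

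Across wt tissues, 7 of the 10 genes were most abundant in trachea or E15.5 lung. *Esrp1* averaged 60.1 ± 4.36 TPM (SD, n = 4) in E15.5 lung, 47.9 ± 6.47 in trachea, 31.8 ± 2.17 in E12.5 lung and 10.1 ± 1.28 in E12.5 somites, and none of these neighbours overlapped. Diaphragm (3.71 ± 3.07) and E10.5 somites (2.25 ± 0.844) followed and did overlap, and iBAT had at most 1 count per library. *Epcam* kept the same order, at 400.02 ± 18.6 TPM in E15.5 lung and 297 ± 47.4 in trachea, but its diaphragm range of 1.58 to 57.2 TPM overlapped both somite stages. *Cdh1* did not separate E15.5 lung (293 ± 72.6 TPM) from trachea (272 ± 67.9).

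The simple keratins were highest in the trachea, at 481 ± 188 TPM for *Krt8* and 352 ± 131 for *Krt18*, with ranges that overlapped those of E15.5 lung. Their ratio differed by tissue: *Krt18* stood at 0.706 to 0.779 of *Krt8* in wt trachea, at 1.03 to 1.17 in E15.5 lung and at 1.43 to 1.58 in E12.5 lung. *Sox2* was at 165 ± 44.6 TPM in E10.5 somites and 143 ± 15.49 in trachea, which overlapped, and at 25.5 ± 4.25 or less in every other context. The basal genes had another order. *Krt5* (223 ± 10.7 TPM) and *Krt14* (116 ± 8.87) peaked in E12.5 somites, and *Trp63* was alike in trachea (14.4 ± 1.34) and E12.5 somites (14 ± 1.43).

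**Figure D2:**
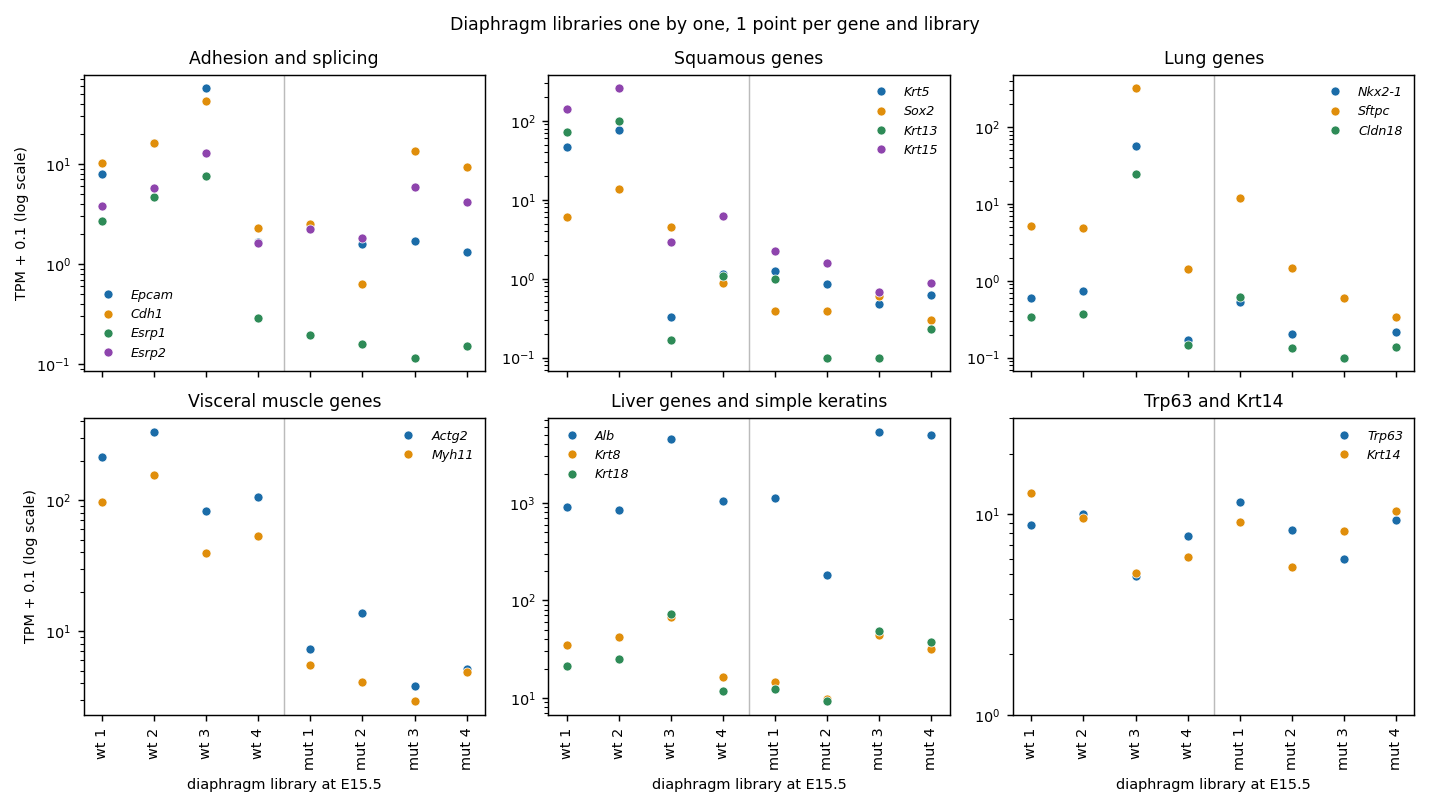
Each panel plots TPM + 0.1 on a log axis for a few genes in the 8 diaphragm libraries, 4 wt and 4 mutant, 1 point per gene and library. Squamous genes are high in wt replicates 1 and 2, lung genes in wt replicate 3, and visceral muscle genes in all 4 wt libraries.

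In the diaphragm, 9 of the 10 genes had a lower fitted mean in *Hoxa5*-/- than in wt libraries, and the differences ran from near 0 to a log2 fold change of -5.98. The adhesion gene *Epcam* stood at 7.80, 16.1, 57.2 and 1.58 TPM in wt replicates 1 to 4 and at 2.21, 1.48, 1.61 and 1.22 TPM in the mutants. Wt replicate 4 thus lay within the mutant range, and the log2 fold change was -3.65 (SE 0.92). *Cdh1* was at 10.1, 16.2, 42.5 and 2.19 TPM in wt and at 2.39, 0.527, 13.5 and 9.14 TPM in mutant libraries, which overlapped broadly (log2 fold change -1.44, SE 0.9995).

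The splicing regulators differed from each other. *Esrp1* had 2.62, 4.59, 7.44 and 0.189 TPM in wt, from 107, 238, 373 and 12 counts, and 0.0963, 0.0597, 0.0165 and 0.0516 TPM in mutants, from 6, 5, 1 and 4 counts. All wt libraries lay above all mutant ones, but wt replicate 4 lay nearer to the mutants than to the other wt libraries. *Esrp2* had 3.66, 5.69, 12.8 and 1.51 TPM in wt and 2.12, 1.74, 5.79 and 4.05 TPM in mutants, which overlapped (log2 fold change -0.77, SE 0.61). In the wt libraries *Esrp1* stood at 0.125 to 0.807 of *Esrp2*, while in trachea and lung it stood at 0.724 to 1.19.

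Among the transcription factors, *Sox2* was at 6.0, 13.4, 4.40 and 0.772 TPM in wt and at 0.295, 0.293, 0.505 and 0.198 TPM in mutants, from 16 to 227 against 5 to 10 counts. The groups did not overlap, and the log2 fold change was -4.24 (SE 0.78). *Trp63* showed no such pattern, at 8.73, 9.88, 4.84 and 7.70 TPM in wt and 11.4, 8.21, 5.85 and 9.28 TPM in mutants (log2 fold change 0.15, SE 0.25).

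The basal keratins split in the same way. *Krt5* was at 46.2 and 75.6 TPM in wt replicates 1 and 2 and at 0.229 and 1.04 TPM in wt replicates 3 and 4, against 1.15, 0.754, 0.378 and 0.519 TPM in the mutants. Its log2 fold change of -5.45 (SE 1.54) therefore came from 2 wt libraries. *Krt14*, its usual partner, was at 12.6, 9.42, 5.0 and 6.04 TPM in wt and 9.03, 5.36, 8.15 and 10.2 TPM in mutants (log2 fold change -0.02, SE 0.33). *Krt8* (16.4 to 66.8 TPM in wt, 9.62 to 43.6 in mutants) and *Krt18* (11.7 to 72.6 and 9.12 to 48.8) overlapped between genotypes, and their fitted differences were -0.67 (SE 0.53) and -0.26 (SE 0.66) on the log2 scale.

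Compared as counts scaled to the library total (CPM), 2 of the 10 genes, *Esrp1* and *Sox2*, did not overlap between genotypes, where 8.03% of the 18019 genes tested did not. No test is given for this contrast, because its *Esrp1* values chose the set, and for the same reason the count of 2 cannot be weighed against that share. Both genes passed the TPM minimum only through wt, with mutant means of 0.056 TPM for *Esrp1* and 0.323 TPM for *Sox2*. Without wt replicates 1 and 2 the log2 fold changes were -6.00 for *Esrp1*, -4.14 for *Epcam* and -2.96 for *Sox2*, and *Krt5* was not fitted, as it reached the minimum mean of 1 TPM in neither group. With wt replicate 4 as the only wt library, *Esrp1* and *Sox2* fell under that minimum, and *Epcam* stood at 0.01, *Cdh1* at 1.54, *Esrp2* at 1.16, *Krt8* at 0.59 and *Krt18* at 1.19. In that fit 1 of the 8 genes left, *Krt5* at -0.60, had a lower fitted mean in the mutants. Both sets of libraries were left out after their values had been seen.

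Genes of other tissues moved with these values. The 20 basal and squamous genes beside the members summed to 525, 740, 193 and 147 TPM in wt and to 123 to 149 TPM in mutants, so that wt replicate 4 lay among the mutants. Within that list the oesophageal and airway keratin *Krt15* had 142.5 and 261 TPM in wt replicates 1 and 2 and at most 6.06 TPM in the other 6 libraries. The club cell gene *Cyp2f2* followed wt replicates 1 and 2 (28.6 and 33.2 TPM, at most 0.43 elsewhere). The list of 4 airway secretory and ciliated genes that holds it summed to 32.4, 36.8, 8.26 and 1.36 TPM in wt. In wt replicate 3 that sum came mostly from its other genes. The mutant sums were 0.553 to 1.05 TPM. The list of 8 foregut endoderm regulators summed to 9.13, 21.2, 128 and 1.25 TPM in wt and to 0.646 to 7.66 TPM in mutants, with a median log2 fold change of -5.41 over the 7 genes tested. All 7 reached a mean of 1 TPM in wt and 3 did in mutants. The rest were tested only through the group where they were high, so the filter partly set that median. The 8 distal lung genes summed to 467 TPM in wt replicate 3 and to 69.9 to 91.4 TPM in the other 7 libraries. The 9 stomach epithelium genes followed neither pattern, at 12.3, 12.2, 70.3 and 12.2 TPM in wt and 15.7, 4.23, 96.2 and 48.5 TPM in mutants. Only 1 of them reached a mean of 1 TPM, in wt and in mutants, so these sums rest largely on 1 gene. Its log2 fold change was 0.70. The hepatocyte list was high in the same libraries, at 10254 TPM in wt replicate 3 and at 12570 and 10697 TPM in mutant replicates 3 and 4. The part of these tissues in the values of *Esrp1*, *Epcam*, *Sox2* and *Krt5* was not tested.

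Foregut mesenchyme showed another distribution. The 9 genes of foregut mesenchyme and visceral smooth muscle summed to 352, 559, 195 and 186.5 TPM in wt and to 18.9 to 28.2 TPM in mutants, so that wt replicate 4 stood with the other wt libraries, and all 6 genes that passed the TPM minimum were without overlap between genotypes, where 8.03% of all genes were. All 6 passed it in wt and 4 did in mutants, so the filter favoured genes high in wt. The visceral actin gene *Actg2* had 214, 332, 82.3 and 106 TPM in wt and 3.74 to 13.6 TPM in mutants. The 9 enteric and peripheral neural crest genes summed to 95.7 to 149 TPM in wt and 47.1 to 49.1 TPM in mutants, with 6 of 9 genes without overlap, against the same 8.03%. All 9 reached a mean of 1 TPM in wt and 5 did in mutants. Diaphragm wt replicate 4, which had *Esrp1* at 0.189 TPM, had the lowest of the wt sums, 95.7 TPM, and stood above all mutants.

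Liver genes moved with the simple keratins instead. *Alb*, the serum albumin gene of hepatocytes, stood at 902, 836, 4566 and 1051 TPM in wt and at 1124, 183.5, 5371 and 4940 TPM in mutants, and mutant replicates 3 and 4, with high *Alb*, also had the highest mutant *Krt18* (48.8 and 37.0 TPM), *Cdh1* and *Esrp2*. The 10 hepatocyte genes had a median log2 fold change of 0.73, with 0 of them free of overlap. Skeletal muscle genes summed to 16075 to 32753 TPM in wt and 12304 to 22891 in mutants, and mesothelial genes, which mark the lining of the body cavities, to 300.3 to 472 and 313 to 387 TPM. The mesenchymal regulators and markers (*Zeb1*, *Zeb2*, *Snai1*, *Snai2*, *Twist1*, *Twist2*, *Cdh2* and *Vim*) had a median of -0.01 and 0 of 8 without overlap, where the median of all genes was 0.00.

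The profile of *Esrp1* across libraries was compared with that of every other gene. Over the 32 trachea, lung and diaphragm libraries, the 5 highest Pearson correlations of log2(TPM + 1) outside the 10 genes were those of *Ap1m2* (0.997), *Cldn4* (0.993), *St14* (0.992), *Hhip* (0.991) and *Spint1* (0.991), and among the 10 *Epcam* reached 0.997, *Esrp2* 0.971, *Cdh1* 0.945 and *Krt14* -0.62. These libraries share 3 tissues, and the values mostly set tissues apart. Over the 8 diaphragm libraries alone, 18019 genes were ranked on the *Esrp1* values that chose the set, so this ranking is a description only. There the 5 highest outside the 10 genes were *Cldn4* (0.995), *Arhgef19* (0.993), *Ssh3* (0.991), *Spint1* (0.991) and *Bnipl* (0.985). *Epcam* followed at 0.977 and *Sox2* at 0.904, while *Krt18* stood at 0.483 and *Trp63* at -0.31. *Cldn4*, a tight junction gene, had 4.84, 6.70, 11.6 and 0.273 TPM in the wt diaphragms and at most 0.269 TPM in the mutants, which is the order of *Esrp1* in the wt libraries. The genes ranked highest depended on the measure, and by Spearman's rho 2 of the 5 were kept over 32 libraries and 0 over 8.

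**Figure D3:**
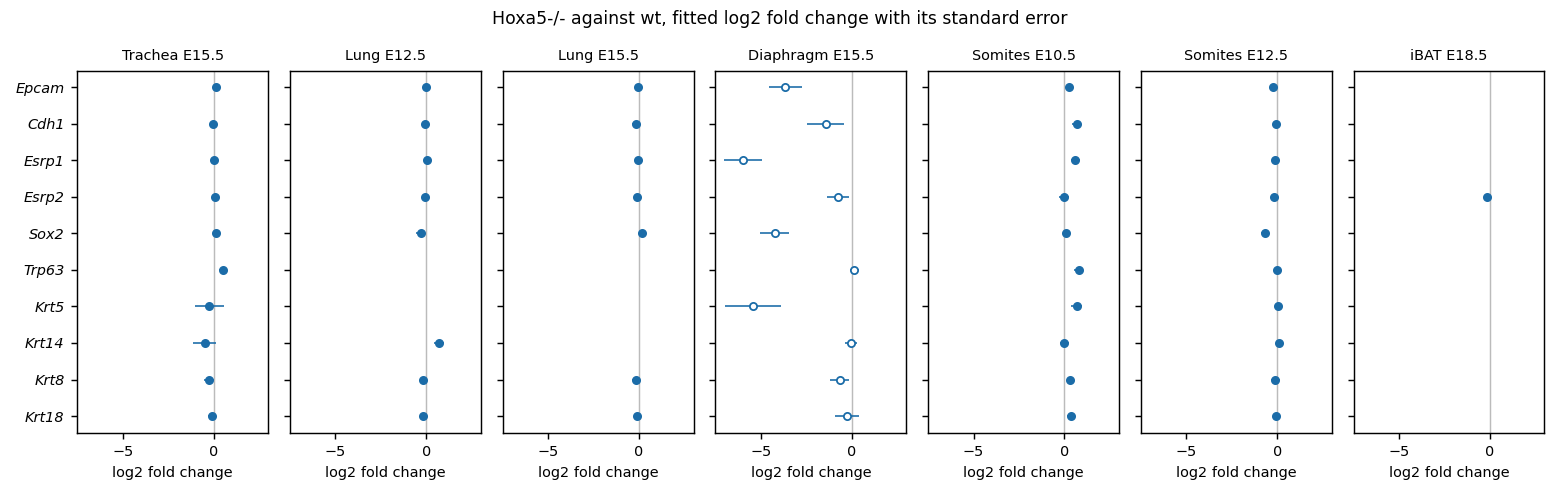
Each panel plots the fitted log2 fold change of *Hoxa5*-/- against wt for the genes that passed the TPM minimum in 1 context, with bars for the standard error (open points, described without a test; filled points, tested). Outside the diaphragm the points lie between -0.67 and 0.77.

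Outside the diaphragm, the comparison of genotypes asked whether loss of *Hoxa5* changed these genes in the other 6 contexts, from the epithelium-rich trachea and lung to somites and brown fat. None was called in any of the 6 contexts by edgeR or by DESeq2, which called 0.271% of genes in trachea, 0.462% and 0.467% in E12.5 and E15.5 lung, 0.0969% and 0.0106% in E10.5 and E12.5 somites and 0.0263% in iBAT. Each wt group is described in the study as a set of embryos of the same number as its libraries. For the mutants its methods name biological replicates, individual mutants for E10.5 somites and samples for iBAT. The p-values set each difference against the spread between libraries. In the trachea all 10 genes passed the minimum of 1 TPM and 0 were called, where 0.0156% of genes were, and 1 had an unadjusted p under 0.05, where 6.7% did. *Esrp1* was at 51.6, 42.2, 55.0 and 42.6 TPM in wt and 58.2, 46.3, 43.7 and 49.4 TPM in mutant tracheae (log2 fold change 0.04, SE 0.11, edgeR adjusted p = 0.946). *Trp63*, required for basal cells, was at 13.2, 15.3, 13.3 and 15.8 TPM in wt and 28.4, 16.6, 15.1 and 23 TPM in mutants. The mutant libraries ran higher but overlapped wt (log2 fold change 0.52, SE 0.19, edgeR adjusted p = 0.729). *Krt5* varied more within than between genotypes, at 19.4, 57.8, 92.8 and 11.6 TPM in wt and 44.2, 11.6, 86.8 and 13.7 TPM in mutants, and *Krt15* ranged with it from 64.9 to 885 TPM. Without the wt replicate that held *Pth*, 0 of the 10 were called as well.

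In the E12.5 lung, 8 genes passed the minimum and 0 were called (0.0798% of genes), with 2 at an unadjusted p under 0.05 (8.01% of genes). *Trp63* and *Krt5* were at or under 0.25 TPM. *Krt8* was at 99.7, 101, 98.8 and 100.5 TPM in wt and at 81.0, 98.3, 92.9 and 82.7 TPM in mutants. It was the 1 gene whose groups did not overlap, where 5.45% of genes did not, and the difference was small (log2 fold change -0.16, SE 0.07, edgeR adjusted p = 0.591). *Krt14* was at 3.74 to 5.90 TPM in wt and 5.71 to 13.1 TPM in mutants (log2 fold change 0.71, SE 0.28, edgeR adjusted p = 0.579). *Sox2* was at 6.98 TPM in mutant replicate 1 and at 17.3 to 24.8 TPM in the other 7 libraries (log2 fold change -0.31, SE 0.24, edgeR adjusted p = 0.77). This replicate was the one with the high sum of the stomach list, and it also had the lowest sum of the adhesion and tight junction list, 658 TPM against 782 to 909 TPM. Without it *Sox2* differed by -0.09 (edgeR adjusted p = 0.867), and the part of any other tissue in the value was not tested.

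In the E15.5 lung, 7 genes passed the minimum, 0 were called (0.124% of genes) and 0 had an unadjusted p under 0.05 (6.32% of genes), with log2 fold changes from -0.19 to 0.16. *Cdh1* was at 249.7, 280.4, 399 and 242.5 TPM in wt and at 258, 214, 375 and 141 TPM in mutants (log2 fold change -0.18, SE 0.22, edgeR adjusted p = 0.942). Replicate 3 of each genotype was high and mutant replicate 4 low for *Cdh1*, *Esrp2*, *Krt8* and *Krt18* alike. The distal lung list moved with them, at 9022 and 9058 TPM in the replicates 3 and at 1503 TPM in mutant replicate 4, against 2012 to 5988 TPM in the other 5 libraries, and its part in that spread was not tested. In the study's library statistics, mutant replicate 4 also had lower shares of mapped reads and of reads assigned to genes than the other 7 libraries. Without it the log2 fold changes were -0.08 for *Cdh1*, -0.01 for *Esrp2*, -0.09 for *Krt8* and -0.03 for *Krt18* (edgeR adjusted p = 0.9998 each).

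In the somites at E10.5, 8 of the 10 genes had a fitted log2 fold change above 0 in mutants against wt, with a median log2 fold change of 0.34 where that of all genes was -0.01, but 0 were called (0.0215% of genes) and 4 had an unadjusted p under 0.05 (12.7% of genes). *Trp63* was at 1.57, 2.95, 3.79 and 2.16 TPM in wt and 5.17, 4.45 and 4.21 TPM in mutants, and *Cdh1* at 5.11, 9.34, 10.7 and 4.71 against 14.4, 11.7 and 11.1 TPM. These 2 genes did not overlap between genotypes, where 8.16% of genes did not. *Trp63* differed by 0.77 (SE 0.22) and *Cdh1* by 0.68 (SE 0.25) on the log2 scale, *Krt5* by 0.67 (SE 0.30) and *Esrp1* by 0.60 (SE 0.24), each with an edgeR adjusted p of 0.391. Wt replicate 3 had the highest wt value of all 4 genes, so leaving it out widened these differences. It is singled out here after its values were seen, and none of the 10 was called when any other library was left out. Without wt replicate 3, all 4 were called, with edgeR adjusted p from 0.0216 to 0.0445. The log2 fold changes were 0.97 for *Trp63*, 0.87 for *Cdh1*, 0.99 for *Krt5* and 0.81 for *Esrp1*. In that fit 386 of all genes were called, where 4 of 18573 were with all libraries. Other genes moved with these 4: the sum of the basal and squamous list was 57.1, 73.8, 107 and 70.0 TPM in wt and 105 to 114 TPM in mutants, and that of the skeletal muscle list 162, 145, 307 and 223 TPM in wt and 266 to 373 TPM in mutants, and their part in the difference was not tested. Of 17 adhesion and tight junction genes tested, 16 had a fitted log2 fold change above 0 and 0 were called. At E12.5 the comparison of genotypes gave 0.02 for *Trp63*, -0.08 for *Cdh1*, 0.05 for *Krt5* and -0.11 for *Esrp1*.

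The somites at E12.5 had 0 of 10 genes called (0.00529% of genes) and 1 at an unadjusted p under 0.05 (3.24% of genes). *Sox2* was at 18.6, 10.6, 9.29 and 10.02 TPM in wt and 8.46, 8.39, 7.03 and 6.41 TPM in mutants, without overlap (log2 fold change -0.67, SE 0.21, edgeR adjusted p = 0.999), and it was the 1 such gene of the 10, where 2.66% of genes did not overlap. The change of the genotype effect between the somite stages was also tested. None of the 10 was called by edgeR (0.0147% of genes) or DESeq2 (0.0833%), with log2 differences of -0.75 for *Trp63* and -0.77 for *Cdh1* (edgeR adjusted p = 0.327 each), and 5 had an unadjusted p under 0.05, where 14.3% of genes did. Without E10.5 wt replicate 3, *Cdh1*, *Esrp1*, *Trp63* and *Krt5* were called in this test, at edgeR adjusted p of 0.0175 to 0.0402. Over all genes, the fits of this difference that left out 1 library called from 2 to 2580 genes, against 3 of 20419 with all libraries.

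In iBAT *Esrp2* alone passed the minimum. It stood at 37.2, 35.8, 36.3, 37.0 and 37.0 TPM in wt and at 41.5, 31.7, 30.4, 28.95 and 27.2 TPM in mutants, from 933 to 1434 counts. Mutant replicate 1 was above all wt libraries and the other 4 mutants were below them, and the log2 fold change was -0.16 (SE 0.09, edgeR adjusted p = 0.9999), where 0.00657% of genes were called and 2.47% had an unadjusted p under 0.05. *Esrp1* had 0 or 1 count in each of the 10 libraries, and *Epcam*, *Cdh1*, *Sox2* and *Krt5* had at most 4. For *Krt5*, all 5 wt libraries were at 0, and a count of 0 allows up to 3 counts. *Esrp2* shares 708 exonic bases, 16.3% of its exons, with *1810019D21Rik* and 219 with *Nfatc3*, both on the opposite strand. Their levels in wt iBAT were 9.88 and 19 TPM, the strand setting of the counting is not given in the sources used here, and reads from the shared bases cannot be assigned.

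**Figure D4:**
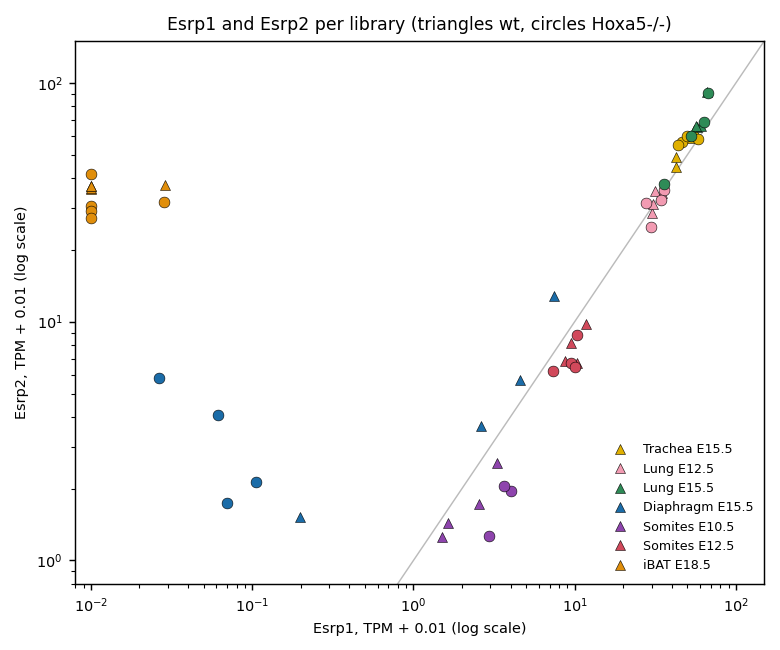
*Esrp2* is plotted against *Esrp1* for all 57 libraries, as TPM + 0.01 on log axes, with a line where both are equal (triangles, wt; circles, *Hoxa5*-/-). Trachea, lung and somite libraries lie along the line, whereas iBAT, the mutant diaphragms and wt diaphragm replicate 4 lie far to its left, with *Esrp2* at 1.51 TPM or more and *Esrp1* at 0.189 TPM or less.

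The tissue comparison of trachea with lung at E15.5 asked which of these genes set the conducting airway apart from the gas-exchange organ. In wt embryos 5 of 10 rose in the trachea and 0 fell, where 20.1% of genes rose and 10.1% fell, and the median log2 fold change was 0.46, against 0.02 for all genes. Of those that rose, *Krt5*, *Trp63* and *Krt14* passed the TPM minimum only through the trachea. *Krt5* was at 11.6 to 92.8 TPM in wt trachea and 0 to 0.23 TPM in wt lung (log2 fold change 8.04, SE 0.90, edgeR adjusted p = 9.58e-05). *Trp63* was at 13.2 to 15.8 against 0.256 to 0.441 TPM (5.31, SE 0.17). *Sox2*, which marks proximal airway, was at 163.5, 128, 145 and 135 TPM against 27.9, 24.5, 20.03 and 29.7 TPM (2.45, SE 0.13). These genes were among 7 of the 10 without overlap between tissues, where 46.1% of genes had none.

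*Krt14* rose as well but from a low level, 1.74 to 7.13 TPM against 0.214 to 0.442 TPM (log2 fold change 3.36, SE 0.52), so that *Krt5* stood at 5.53 to 22.6 times *Krt14* in wt trachea and at 1.81 to 2.03 times in E12.5 somites. *Krt8* rose by 0.76 (SE 0.27, edgeR adjusted p = 0.0406) with overlapping libraries. This call was lost in 5 of 8 fits that left out 1 library, among them the trachea replicate that held *Pth* (0.48, edgeR adjusted p = 0.0778). Without that replicate the other 4 calls were kept, at 7.44 for *Krt5*, 5.36 for *Trp63*, 2.45 for *Sox2* and 3.35 for *Krt14*. *Epcam* (-0.47), *Esrp2* (-0.45) and *Esrp1* (-0.36) were lower in the trachea at adjusted p of 0.00545 to 0.0265 by edgeR, which did not reach a fold of 1.5, and *Cdh1* and *Krt18* did not pass at -0.14 and 0.16. In the mutants, which share no library with wt, the same comparison gave 7.97 for *Krt5*, 5.56 for *Trp63*, 2.38 for *Sox2*, 1.95 for *Krt14* and 0.67 for *Krt8*, and these 5 rose while 0 fell, where 17% of genes rose and 10% fell. In the mutants the *Krt14* call was lost without lung replicate 1 or 2 (edgeR adjusted p to 0.061) and that of *Krt8* fell under the fold minimum without trachea replicate 3 (0.57).

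Related lists followed the division. Of the other basal and squamous genes, 10 of 17 rose and 3 fell in wt trachea, led by *Krt17* (log2 fold change 7.15), the desmosomal gene *Pkp1* (6.82) and *Krt4* (4.27). Of the epithelial transcription factors, 5 of 10 rose, among them *Ehf* (3.5) and *Grhl1* (1.95), and all 8 distal lung genes fell, led by *Sftpc* (-5.91). In wt, 17 basal and squamous genes reached a mean of 1 TPM in trachea and 14 in lung. For the distal lung genes these counts were 6 and 8. The adhesion and tight junction list had 2 higher and 4 lower of 18, led by *Cldn6* (-1.98) and *Crb3* (-1.25). The effect of genotype did not differ between trachea and lung for any of the 10 at adjusted p under 0.05 (edgeR, 0.00502% of genes called), with 0 at an unadjusted p under 0.05 where 5.04% of genes were, and 0 by DESeq2 where 0.296% were.

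**Figure D5:**
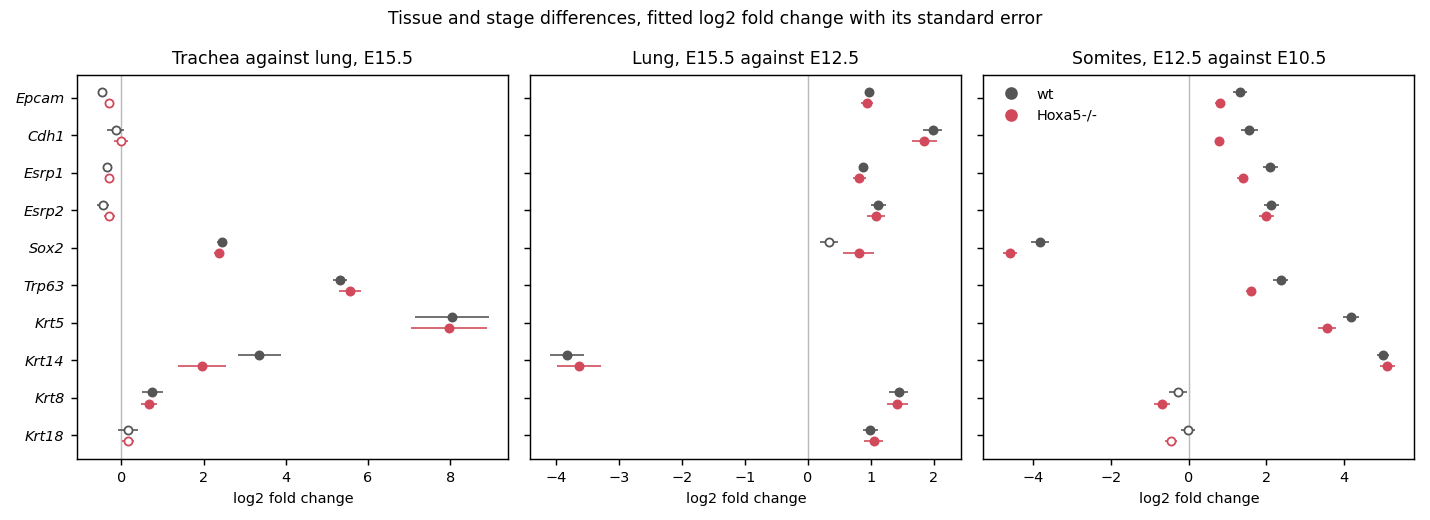
Fitted log2 fold changes with standard errors for 3 comparisons of tissue or stage, in wt (grey) and *Hoxa5*-/- (red) libraries; filled points passed an adjusted p under 0.05 and a fold of 1.5. *Krt5* and *Trp63* stand out in the trachea, *Krt14* falls while the simple keratins rise with lung stage, and *Sox2* falls while *Krt5* and *Krt14* rise with somite stage.

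From E12.5 to E15.5 the lung gained epithelial transcripts. Of the 8 genes tested in wt, 6 rose and 1 fell, where 15.4% of genes rose and 9.15% fell, with a median log2 fold change of 0.99 where that of all genes was -0.01. *Epcam* went from 177, 184, 226 and 206 TPM to 378, 399.64, 423 and 399.55 TPM (log2 fold change 0.98, SE 0.07, edgeR adjusted p = 3.19e-06). *Cdh1* rose further, from 66.8 to 77.3 TPM to 242.5 to 399 TPM (1.98, SE 0.15), so that it went from 0.342 to 0.378 of *Epcam* to 0.607 to 0.942. *Esrp1* and *Esrp2* rose by 0.88 (SE 0.07) and 1.12 (SE 0.12), and *Krt8* and *Krt18* by 1.44 (SE 0.15) and 0.99 (SE 0.12).

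*Krt14* went the other way, from 5.75, 4.62, 3.74 and 5.90 TPM to 0.214 to 0.442 TPM (log2 fold change -3.82, SE 0.27). In both genotypes it passed the TPM minimum only through E12.5, with E15.5 means of 0.361 TPM in wt and 0.624 TPM in mutants. It was among 7 of the 8 genes without overlap, where 48.9% of genes had none, and the cornified gene *Lor* fell with it (-3.28). *Sox2* did not pass in wt (0.34, SE 0.14, edgeR adjusted p = 0.0715). It passed in the mutants (0.81, SE 0.25, edgeR adjusted p = 0.0263), in 5 of 8 fits that left out 1 library. Among these was the fit without E12.5 mutant replicate 1, the library with the high stomach list sum (0.59, edgeR adjusted p = 0.0071). *Sox2* lost the call without mutant replicate 1, 2 or 4 of the E15.5 lung, at edgeR adjusted p of 0.0552 to 0.0595. The other 7 genes were called in the mutants too, where 12.7% of genes rose and 7.24% fell, at 0.94 for *Epcam*, 1.85 for *Cdh1*, 0.82 for *Esrp1*, 1.09 for *Esrp2*, 1.42 for *Krt8*, 1.04 for *Krt18* and -3.63 for *Krt14*. In wt, 16 of 18 adhesion and tight junction genes and 10 of 10 epithelial transcription factors rose, the latter with *Ehf* (5.84) in front. Of these transcription factors, 10 reached a mean of 1 TPM at E15.5 and 8 at E12.5. The genotype effect did not differ between stages for any of the 8 by edgeR (0.0267% of genes called) or DESeq2 (0.0961%), and 0 had an unadjusted p under 0.05 where 5.25% of genes did.

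In the somites the basal keratins rose with stage. Of 10 genes in wt, 7 rose and 1 fell from E10.5 to E12.5, where 24.1% of genes rose and 18.4% fell, with a median log2 fold change of 1.83 against -0.04 for all genes. *Krt14* went from 2.29, 3.07, 4.72 and 3.86 TPM to 106, 114, 127 and 118 TPM (log2 fold change 5.01, SE 0.15, edgeR adjusted p = 1.92e-11). *Krt5* went from 7.32 to 19.6 TPM to 213 to 234 TPM (4.18, SE 0.20). *Trp63* rose by 2.36 (SE 0.19), *Esrp1* by 2.10 (SE 0.20), *Esrp2* by 2.12 (SE 0.20), *Cdh1* by 1.56 (SE 0.21) and *Epcam* by 1.31 (SE 0.18). All 8 of the genes called were without overlap, where 57.5% of genes had none. *Krt8* (-0.29, SE 0.23) and *Krt18* (-0.02, SE 0.18) did not pass.

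*Sox2*, which is also a gene of neural progenitors, fell from 135, 185, 217 and 121 TPM to 18.6, 10.6, 9.29 and 10.02 TPM (log2 fold change -3.83, SE 0.22). The 7 neural tube progenitor genes fell with it, with a median of -6.90, led by *Neurog2* (-8.12), *Sox1* (-8.09) and *Olig2* (-8.02), and the part of neural tube left on the E10.5 segments was not tested. In wt all 7 reached a mean of 1 TPM at E10.5 and 2 did at E12.5. All 18 of the other basal and squamous genes tested rose, with a median of 2.76, led by *Dsg3* (7.17), *Pkp1* (6.97) and *Krt17* (6.19), and so did 4 of 6 cornified genes, led by *Krtdap* (5.10). In wt these 18 genes reached a mean of 1 TPM at E12.5 and 9 of them did at E10.5. For the cornified genes these counts were 6 and 3. The rest were tested only through the stage where they were high, so the filter partly set these rises. The labelled dissection does not say whether surface ectoderm stayed on the segments. In the mutants 7 rose and 2 fell, where 22.2% of genes rose and 14.7% fell, with 5.11 for *Krt14*, 3.55 for *Krt5*, 1.60 for *Trp63*, 1.39 for *Esrp1*, -4.60 for *Sox2* and -0.69 for *Krt8*. The *Krt8* call was lost without E10.5 mutant replicate 2 (-0.57, edgeR adjusted p = 0.0738).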

How the data were processed

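RNA was selected on polyA. Per the submitters' processing notes and the study's methods, the authors used Trim Galore (0.6.5) to trim, STAR (2.7.9a) to align to GRCm39 with Ensembl release 109 genes, and featureCounts (2.0.3) to count uniquely mapped reads; the deposited read counts are raw. The deposited TPM values were scaled from them by the authors. Members and gene lists were chosen with earlier results of these data known. The main test was the edgeR (4.0.16, R 4.3.3) quasi-likelihood test with TMM scaling, run on the 2 groups of a comparison (on 4 groups for differences between effects). Genes entered if their mean reached 1 TPM in 1 group or more. Adjusted p-values are Benjamini-Hochberg over all genes tested; a call needed one under 0.05 and a fold of 1.5, with no fold minimum for differences between effects. The SE is the absolute log2 fold change over the root of F. Levels are mean ± SD. Named genes were the 10 members and, from each list, up to 3 called genes without overlap and with the largest change; some genes that this rule names are not reported here; other list genes, which describe single libraries, were chosen after their values were seen. Alternatives were DESeq2 (1.42.0), its size factors, other filters, blocking on replicate numbers or, in iBAT, on the leading number of the sample names, a joint fit of each table's libraries, and leaving out libraries. The scripts were tested on simulated counts. Depth was 18369905 to 72991481 counts per library; the limit on a count of 0 covers counting error only.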

Additional observations from a re-analysis of the deposited data

Results flagged for a closer look

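For each gene and group of 4 or 5 libraries, the highest or lowest library was compared with the rest (Dixon's test at its 95% value), in 99 groups. In 2 of them a library stood apart, and chance marks about 1 group in 20. *Esrp2* in wt replicate 3 of the E15.5 lung was at 91.3 TPM, where the other 3 wt libraries were at 65.6 to 65.8 TPM. *Sox2* in wt replicate 1 of the E12.5 somites was at 18.6 TPM, where the other 3 were at 9.29 to 10.6 TPM. No gene moved in opposite directions without overlap in 2 contexts, and no difference between the effects of genotype was called with all libraries.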

How the results depend on the processing

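In the diaphragm, where the values are a description, 9 of the 10 genes had a lower fitted mean in mutants, and 7 to 10 had one without 1 library. Without wt replicates 1 and 2 this held for 7 of 9, and without wt replicates 1, 2 and 3 for 1 of 8. In E10.5 somites 0 were called, against 3 with no filter and 0 to 4 without 1 library. Over all genes these settings called 147 of 36821 and 1 to 386. The difference between somite stages had 0, against 4 with no filter and 0 to 4 without 1 library. There the settings called 318 of 41561 and 2 to 2580 over all genes. Trachea against lung in wt had 5 calls, where 20.1% of genes rose and 10.1% fell. With no fold minimum it had 8, where 9584 of 19340 genes were called. The cause of the changes was not tested, beyond the genes or samples that a setting adds or removes. Of the 5 genes most like *Esrp1*, 3 were kept over 32 libraries with log2(TPM + 0.1) and 2 with Spearman's rho; over the 8 diaphragm libraries 1 and 0 were kept. Outside the diaphragm, no value changed sign past the threshold. This check did not cover the diaphragm. There, without wt replicates 1 to 3, log2 fold changes went from -1.44 to 1.54 for *Cdh1* and from -0.77 to 1.16 for *Esrp2*. *Krt8* went from -0.67 to 0.59 and *Krt18* from -0.26 to 1.19. *Epcam* (0.01) and *Krt14* (0.42) also changed sign, while *Trp63* stayed above 0 and *Krt5* below it. DESeq2, its size factors, a minimum of 10 counts and the replicate block changed 0 of 140 values each, and leaving out 1 library changed 21 of 1316 (a call, or in the diaphragm a move of over 1 SD between libraries).

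Replicate numbers were not treated as pairs, because in no context did every same-numbered pair deviate together with a correlation over 0.1 (in iBAT 4 of 5 pairs did, the lowest at 0.073). Single pairs reached 0.397 in trachea, 0.470 in E15.5 lung and 0.445 in diaphragm, where 3 of 4 pairs were over 0.1. The iBAT sample names share leading numbers between genotypes, whose meaning is not stated. With these as a block, the call for *Esrp2* did not change and 2 genes were called over all genes. With the replicate number as a block, 8 of the 10 genes had a lower fitted mean in the diaphragm, and no call among the 10 genes changed in the other comparisons. Over all genes the block moved the calls from 107 to 358 in the diaphragm, from 22 to 104 in E15.5 lung, from 14 to 4 in E12.5 lung, from 3 to 1 in trachea, from 4 to 0 in E10.5 somites, and from 1 to 2 in E12.5 somites and in iBAT, and from 1 to 19 for the difference of trachea and lung. DESeq2 called 52 genes in trachea, 81 and 83 in E12.5 and E15.5 lung, 406 in diaphragm, 18 and 2 in E10.5 and E12.5 somites and 4 in iBAT, where edgeR called 3, 14, 22, 107, 4, 1 and 1, and 59, 18 and 17 for the differences of trachea and lung, lung stages and somite stages, where edgeR called 1, 5 and 3. Without the filter edgeR called 32 in E12.5 lung, 196 in diaphragm, 147 in E10.5 somites, 10 in E12.5 somites, 6 in iBAT and 318 for the somite difference. In 1 fit for all libraries it called 40 in trachea, 38 in E15.5 lung, 355 in diaphragm, 28 in E10.5 somites, 2 in E12.5 somites and 3 in iBAT. Low counts limit *Esrp1* and *Sox2* in mutant diaphragms (1 to 10 counts) and 9 of the 10 genes in iBAT.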
